A study of Homo sapiens with 4 samples.

Results

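NB4-R4 cells are leukaemic promyelocytes, a subclone of NB4 that resists all-trans retinoic acid (ATRA), and the series title also calls them NB4-MR4. The cells were given the vehicle DMSO or the CHK1 inhibitor MK-8776 at 4 µM, in both cases for 96 h, with 2 Affymetrix arrays per group of total RNA from live cells. Both groups share the cell line, the culture medium and the time. The labels name no change of oxygen in either group. The 2 samples of a group are labelled as biological replicates with no further detail, so the spread behind each p-value may be partly technical. Described here are 10 of the 17687 genes with 1 symbol on the array, taken by name: the hypoxia factors HIF1A and EPAS1 and 8 genes known as hypoxia targets outside glycolysis, namely BNIP3, BNIP3L, NDRG1, P4HA1, EGLN3, VEGFA, ANKRD37 and TMEM45A. Each of the 10 had exactly 1 feature on the array, and all 10 entered the fit, since no filter on dim features was used.

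Hypoxia-inducible factor (HIF) pairs an oxygen-labile alpha subunit, encoded by HIF1A or EPAS1, with the stable partner ARNT. When oxygen is present, prolyl hydroxylases of the EGLN family mark the alpha subunit, and the VHL ubiquitin ligase sends it for degradation. When oxygen falls, the alpha subunit persists, enters the nucleus and binds short motifs beside its target genes. Regulation is thus largely at the protein, which these arrays do not measure. In blood and leukaemia cells the pathway is known for its control of glucose use, of the removal of mitochondria and of growth factor release.

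After MK-8776, transcripts of 4 target genes fell and the transcript of the factor HIF1A rose. TMEM45A fell 6.02-fold, P4HA1 4.23-fold, BNIP3 3.93-fold and NDRG1 3.36-fold, while HIF1A rose 2.61-fold (n = 2 per group). The other 5 genes, EPAS1, BNIP3L, EGLN3, VEGFA and ANKRD37, did not pass the test. Thus 4 of the 10 were called lower, against 2.02% of all genes, and 1 of the 10 was called higher, against 1.66% of all genes. The 10 genes were chosen with earlier results of these data known, so an excess over these shares may be in part built in. A call is an adjusted p under 0.05 in limma, two-sided, with Benjamini-Hochberg adjustment over all 17687 genes. The median change of the 10 genes was -0.86 on the log2 scale, beside 0.005 for all genes. Both MK-8776 arrays lay below both DMSO arrays in 7 of the 10 genes, against 24.2% of all genes. They lay above both in the other 3, against 24.0% of all genes, so the groups overlapped in 0 of the 10. Each of these calls needed all 4 arrays. Leaving out any 1 array leaves 1 array in a group. In those fits none of the 10 passed in limma, and nearly all calls over the whole table were lost too. The signs of all 10 changes stayed the same there, which was fixed in advance, since the groups overlapped in 0 of the 10.

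**Figure D1:**
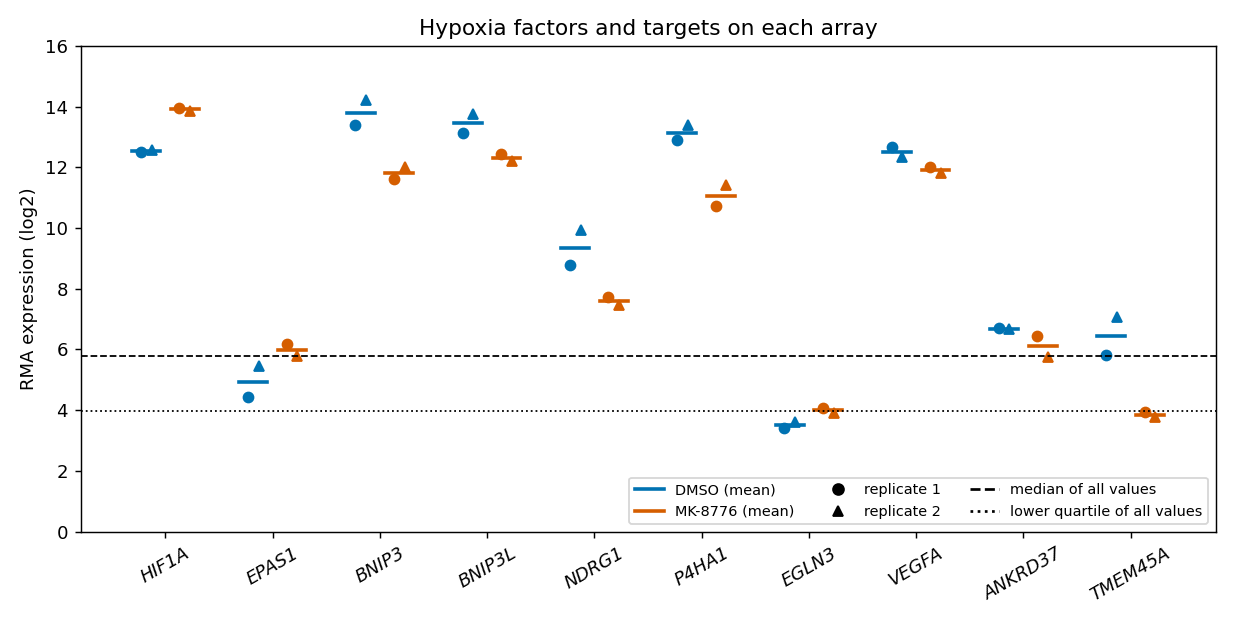
RMA expression (log2, vertical axis) of the 10 genes on each array, with DMSO in blue, MK-8776 in orange, circles for replicate 1, triangles for replicate 2 and bars for the mean of the 2 arrays. The arrays of the 2 groups do not overlap for any of the 10 genes. HIF1A, EPAS1 and EGLN3 lie higher with MK-8776 and the other 7 lie lower.

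Values are RMA expression on the log2 scale, so a difference of 1 is 2-fold, and the level of one gene is not set against that of another. No source used here states how RMA was set, and the size of every log2 or fold change may depend on that. As a guide to dim features, the lower quartile of all values was 3.97 and the median was 5.77. RNA came from whole cultures, so fewer cells with a transcript and less of it per cell cannot be told apart.

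HIF1A encodes the alpha subunit HIF-1α (chromosome 14, 61695513 to 61748258, GRCh38.p14). It measured 12.50 and 12.56 on the DMSO arrays and 13.96 and 13.87 on the MK-8776 arrays. Both MK-8776 arrays lay above both DMSO arrays, and the distance between the groups (1.31) was many times the gap within either (0.06 and 0.09). The change was 1.39 (SE 0.20, adjusted p = 0.0125, limma), the 150th highest of 17687. It was between 1.34 and 1.43 with any 1 array left out. EPAS1 encodes the related subunit HIF-2α (chromosome 2, 46297407 to 46386697). It measured 4.42 and 5.45 in DMSO and 6.19 and 5.79 in MK-8776. Both MK-8776 arrays were higher, but the DMSO arrays stood 1.03 apart. The difference of 1.06 (SE 0.34, 95% interval 0.28 to 1.83, adjusted p = 0.138, limma) did not pass. It was 0.54 without DMSO replicate 1 and 1.57 without DMSO replicate 2.

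EGLN3 encodes PHD3, one of the prolyl hydroxylases that mark the alpha subunits, and is itself a HIF target (chromosome 14, 33924227 to 33951074). Its feature was dim, at 3.41 and 3.61 in DMSO and 4.08 and 3.90 in MK-8776. The MK-8776 arrays were the higher ones, with a distance of 0.29 between the groups. The DMSO mean was under the lower quartile of all values and the MK-8776 mean was just above it. The difference was 0.48 (SE 0.21, 95% interval -0.00 to 0.96, adjusted p = 0.270, limma).

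BNIP3 and BNIP3L encode receptors of the outer mitochondrial membrane that recruit autophagosomes and so start the removal of mitochondria. BNIP3 (chromosome 10, 131967684 to 131981923) measured 13.39 and 14.21 in DMSO and 11.63 and 12.02 in MK-8776. Both MK-8776 arrays were lower, by at least 1.37, with the higher of the DMSO values on replicate 2. The change was -1.98 (SE 0.30, adjusted p = 0.0144, limma), the 45th lowest of 17687. BNIP3L measured 13.13 and 13.76 in DMSO and 12.43 and 12.21 in MK-8776. These arrays did not overlap either, at a distance of 0.70. The difference of -1.13 (SE 0.26, 95% interval -1.72 to -0.53) did not pass (adjusted p = 0.0556, limma). It did pass when the variance was allowed to depend on the level (0.00701), and also among genes above the median level (0.0347). The gene table lists 46 pseudogenes of BNIP3, and what share of this signal stems from BNIP3 itself is uncertain.

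P4HA1 encodes the catalytic subunit of collagen prolyl 4-hydroxylase, an enzyme that needs oxygen and stabilises the collagen helix (chromosome 10, 73007217 to 73096866). Levels were 12.89 and 13.40 in DMSO and 10.71 and 11.42 in MK-8776. The groups were 1.47 apart, and replicate 2 was the higher array in both. The change was -2.08 (SE 0.29, adjusted p = 0.0110, limma), the 32nd lowest. It was the largest fall among the 10 genes whose level stayed above the median of all values in both groups, with a 95% interval from -2.75 to -1.41.

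VEGFA encodes the growth factor that drives the sprouting of blood vessels (chromosome 6, 43770211 to 43786487). It measured 12.68 and 12.33 in DMSO and 12.02 and 11.80 in MK-8776. The MK-8776 arrays were lower by at least 0.31, which is less than the gap of 0.35 between the DMSO arrays. The difference of -0.60 (SE 0.22, 95% interval -1.11 to -0.08) did not pass (adjusted p = 0.203, limma).

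NDRG1 encodes a cytoplasmic protein of stress and differentiation that is induced in hypoxia. It measured 8.79 and 9.92 in DMSO and 7.73 and 7.48 in MK-8776. Both MK-8776 arrays were lower, by at least 1.06, against a gap of 1.13 between the DMSO arrays. The change was -1.75 (SE 0.35, adjusted p = 0.0344, limma), and the call was lost in a test against a fold of 1.2 (adjusted p = 0.0666) and with the replicate number as a block (adjusted p = 0.0835). Without DMSO replicate 2 the change was -1.19.

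TMEM45A encodes a transmembrane protein induced in hypoxia (chromosome 3, 100492619 to 100577444). It measured 5.81 and 7.07 in DMSO and 3.94 and 3.76 in MK-8776. The MK-8776 arrays were lower by at least 1.87, although the DMSO arrays stood 1.26 apart, the widest gap among the 10 genes. The change of -2.59 (SE 0.37, adjusted p = 0.0118, limma) was the 12th lowest of 17687. With MK-8776 the feature was dimmer than 3.97, the lower quartile, and the size of this fall is therefore limited by how far down the array reads. ANKRD37 encodes an ankyrin repeat protein (chromosome 4, 185396841 to 185400723). It measured 6.70 and 6.68 in DMSO and 6.45 and 5.75 in MK-8776. Both MK-8776 arrays were lower, but they stood 0.70 apart. The difference of -0.59 (SE 0.26, 95% interval -1.20 to 0.02, adjusted p = 0.277, limma) was -0.24 with MK-8776 replicate 2 left out and -0.94 with replicate 1 left out.

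**Figure D2:**
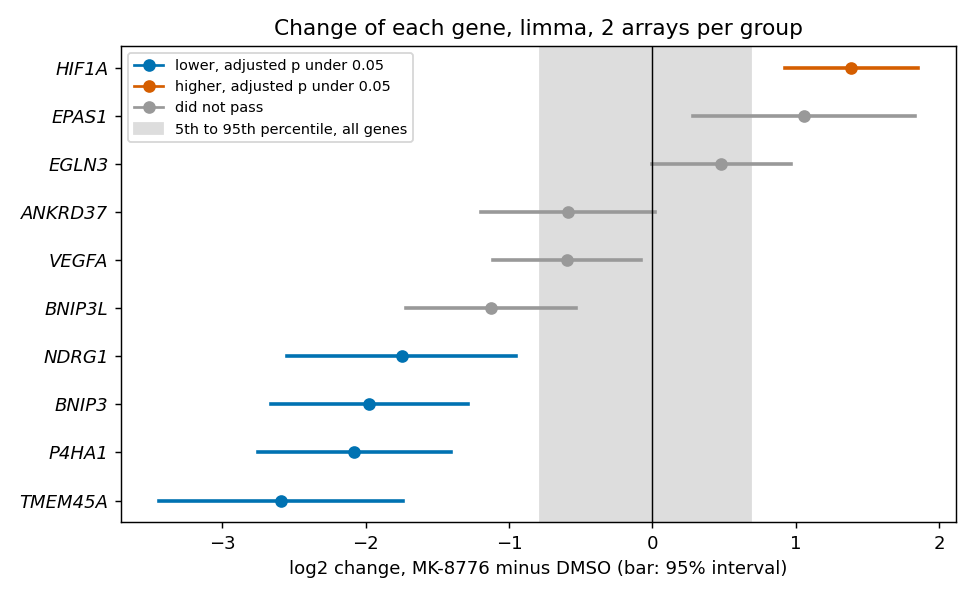
Log2 change of the 10 genes, MK-8776 minus DMSO (horizontal axis), with 95% intervals from limma as bars. Blue genes passed as lower, orange as higher and grey did not pass, and the shaded band from -0.79 to 0.69 holds the 5th to 95th percentile of all 17687 genes. TMEM45A, P4HA1, BNIP3 and NDRG1 lie left of the band with their whole intervals, and HIF1A lies right of it.

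The 250 bases before the gene's start were read from RefSeq (GRCh38.p14) for the 7 of the 10 genes found there, since HIF is known to bind a 5-letter core motif, ACGTG or GCGTG. On both strands, ACGTG was found in 3 of the 7 windows (BNIP3, P4HA1 and ANKRD37), beside 18.7% of the 24885 windows of this length in the table. GCGTG was found in 3 of the 7 (BNIP3, HIF1A and EPAS1), beside 31.8%, and either motif in 5 of the 7, beside 43.0%. The 7 windows were rich in G and C, at 64.0% to 81.6% against a median of 57.6%, and both motifs are mostly G and C. The windows shown are those of the called targets BNIP3, P4HA1 and TMEM45A and, for contrast, of ANKRD37, which holds the motif and did not pass. They are printed 5′ to 3′ on the gene's strand, with each motif in capitals, and a motif on the other strand reads there as CACGT or CACGC. They lie at chr10:131981924-131982173 (minus strand), chr10:73096867-73097116 (minus strand), chr3:100492369-100492618 (plus strand) and chr4:185396591-185396840 (plus strand).
BNIP3: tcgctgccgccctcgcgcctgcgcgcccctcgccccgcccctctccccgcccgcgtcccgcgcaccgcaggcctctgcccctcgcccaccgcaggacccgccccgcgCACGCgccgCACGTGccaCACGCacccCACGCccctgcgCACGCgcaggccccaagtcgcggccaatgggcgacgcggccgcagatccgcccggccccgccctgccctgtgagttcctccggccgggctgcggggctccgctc
P4HA1: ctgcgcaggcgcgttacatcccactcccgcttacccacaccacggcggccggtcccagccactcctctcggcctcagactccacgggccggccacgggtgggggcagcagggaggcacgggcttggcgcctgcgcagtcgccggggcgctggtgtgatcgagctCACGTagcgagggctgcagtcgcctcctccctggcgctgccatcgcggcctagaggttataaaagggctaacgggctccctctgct
TMEM45A: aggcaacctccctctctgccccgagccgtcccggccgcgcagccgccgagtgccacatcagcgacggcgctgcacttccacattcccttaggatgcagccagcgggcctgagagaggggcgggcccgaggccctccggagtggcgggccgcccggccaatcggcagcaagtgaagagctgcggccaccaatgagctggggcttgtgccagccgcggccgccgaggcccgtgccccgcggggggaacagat
ANKRD37: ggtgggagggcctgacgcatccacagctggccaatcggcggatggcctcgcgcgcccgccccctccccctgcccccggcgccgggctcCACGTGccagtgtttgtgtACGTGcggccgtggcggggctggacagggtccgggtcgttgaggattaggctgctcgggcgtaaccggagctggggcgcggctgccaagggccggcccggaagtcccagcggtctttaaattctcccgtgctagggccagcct

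BNIP3 held 6 matches, all between 143 and 104 bases before the start. They include CACGTG, which counts as ACGTG on both strands, at 134 bases. P4HA1 held 1 match, on the other strand, 86 bases before the start. ANKRD37 held 3, again with CACGTG, at 162 bases, and another ACGTG at 143 bases. TMEM45A and EGLN3 held 0 in this window. BNIP3 and P4HA1, which fell, thus held a motif in the window, as did ANKRD37, which did not pass. TMEM45A, which also fell, lacked both motifs there. NDRG1, which fell too, had no window to read, nor had BNIP3L and VEGFA. Bases outside the windows were not searched, and whether the motifs go with the changes was not tested. A match is only a match of letters, and binding was not measured.

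The DMSO arrays were not alike in these genes. Replicate 2 lay above replicate 1 by more than 0.5 in 6 of the 10 genes, beside 8.38% of all genes. Replicate 1 lay above by that much in 0 of the 10, beside 8.25% of all genes. The gap was 1.26 for TMEM45A, 1.13 for NDRG1, 1.03 for EPAS1, 0.82 for BNIP3, 0.63 for BNIP3L and 0.51 for P4HA1. Thus all 4 genes that fell were higher on DMSO replicate 2, whereas HIF1A differed by 0.06 and VEGFA by -0.35. Replicate 2 was also the higher DMSO array in 19 of 19 glycolytic HIF targets and in 30 of 44 other targets, but in 10 of 22 genes of the HIF machinery, beside 48.8% of all genes. Among the 358 genes called lower it was higher in 70.1%, and among the 294 called higher in 36.4%. Without DMSO replicate 2 the changes of TMEM45A, P4HA1, BNIP3 and NDRG1 were -1.96, -1.83, -1.57 and -1.19. Without DMSO replicate 1 they were -3.22, -2.34, -2.39 and -2.32. The size of the falls thus moved with the DMSO array used. Their sign could not turn, since the groups did not overlap in these genes.

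**Figure D3:**
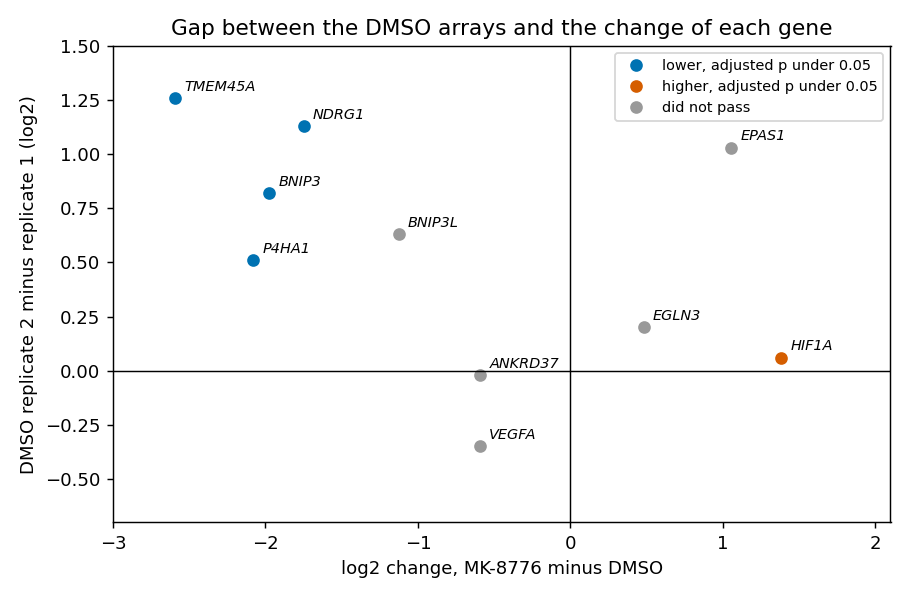
Gap between the DMSO arrays (replicate 2 minus replicate 1, log2, vertical axis) against the log2 change, MK-8776 minus DMSO (horizontal axis), 1 point per gene. The 4 genes called lower (blue) have gaps of 0.51 to 1.26, and HIF1A (orange) has a gap of 0.06. The axes share the DMSO values, so a relation between them is in part built in.

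The rest of the pathway was taken from 7 lists, in which 5 symbols stand in over 1 list and some of the 10 genes stand too. The lists were also written with earlier results of these data known, so a share above that of all genes may be in part built in. Of 22 measured genes of the HIF machinery (subunits, hydroxylases, ubiquitin ligase and cofactors), HIF1A alone was called higher (4.55%, beside 1.66% of all genes). In limma 0 were called lower and 21 did not pass. At an unadjusted p under 0.05, 2 were lower and 4 higher, beside 1808 and 1523 of all 17687 genes. The list's median change was 0.15. HIF1A, EPAS1 and EGLN3 are among the 10 genes, and without them 0 of the 19 left in the list were called in either direction. Some parts of it, chosen after their values were seen, are given by role. The partner subunit gene ARNT measured 11.60 and 11.51 in DMSO and 11.73 and 11.83 in MK-8776. VHL, which encodes the ligase subunit that recognises the alpha chains, was at 9.10 and 8.99 against 8.79 and 8.68. EGLN1, the gene of the main oxygen sensor PHD2, was at 9.49 and 9.32 against 9.86 and 9.41. HIF1AN, which encodes the hydroxylase that blocks the activation domain, was at 11.29 and 11.27 against 11.29 and 11.12. None of these 4 passed, and their differences lay between -0.31 and 0.23. Over the 19 genes of the list outside the 10, differences reached from -0.77 (LIMD1) to 0.88 (CREBBP), and none passed. LIMD1 and CREBBP were also chosen after their values were seen. Both MK-8776 arrays lay below both DMSO arrays in 6 of the 19 and above both in 6, beside 24.2% and 24.0% of all genes.

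Of 44 other measured HIF targets outside glycolysis, 5 were called lower (11.4%, beside 2.02% of all genes), 0 were called higher in limma and 39 did not pass. At an unadjusted p under 0.05, 13 were lower and 2 higher, beside 1808 and 1523 of all 17687 genes. The median was -0.25, with 28 lower and 16 higher whatever the p, beside 8699 and 8903 of all genes. AK4, which encodes a mitochondrial adenylate kinase, measured 7.74 and 7.57 in DMSO and 5.73 and 6.15 in MK-8776, a change of -1.715 (adjusted p = 0.00871, limma). PAM, the gene of a peptide-amidating enzyme, fell by 1.63 (adjusted p = 0.0139), and FAM162A, the gene of a hypoxia-induced mitochondrial protein, fell by 1.56 (adjusted p = 0.0165). GBE1, the glycogen branching enzyme gene, fell by 1.61 (adjusted p = 0.0307), and ZNF395, a zinc finger gene, fell by 1.47 (adjusted p = 0.0368). The last 2 calls were lost in the test against a fold of 1.2 (adjusted p = 0.0603 and 0.0774), and that of GBE1 also with the replicate block (adjusted p = 0.0541). None of the 5 passed in limma with any 1 array left out. ADM, which encodes the vessel-relaxing peptide adrenomedullin, had the largest difference upward, 0.88 (6.37 and 7.41 against 7.96 and 7.57, adjusted p = 0.212), and did not pass. ADM was chosen after its values were seen.

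BNIP3 binds both BCL2-type survival proteins and autophagosome proteins of the LC3 and GABARAP families. Of 24 measured genes of this group, 2 were called lower (8.33%, beside 2.02% of all genes), 3 were called higher (12.5%, beside 1.66%) and 19 did not pass, with a median of 0.24. BNIP3 and BNIP3L are among the 10 genes. Without them 1 of 22 was called lower (4.55%) and 3 were called higher (13.6%). BCL2 fell by 1.71 (8.72 and 8.77 against 6.92 and 7.16, adjusted p = 0.00724, limma), beside BNIP3 itself. SQSTM1, an autophagy receptor gene, rose by 2.38 (10.34 and 10.26 against 12.96 and 12.40, adjusted p = 0.00374). GABARAPL1 rose by 1.60 (7.34 and 7.96 against 9.53 and 8.96, adjusted p = 0.0259) and MAP1LC3B, which encodes LC3B, by 1.11 (11.25 and 11.11 against 12.38 and 12.20, adjusted p = 0.0292). Both have near-identical copies, so their signals are uncertain, and both calls were lost against a fold of 1.2 (adjusted p = 0.0517 and 0.0749) and with the replicate block (adjusted p = 0.0822 and 0.0603). BNIP3 and BNIP3L, of which BNIP3L did not pass, thus measured lower on both MK-8776 arrays, while SQSTM1 and, with uncertain signals, GABARAPL1 and MAP1LC3B rose. Other genes of the list went both ways and did not pass. FUNDC1 (0.525) and BCL2L13 (0.22) measured higher on both MK-8776 arrays, and FKBP8 (-0.35) lower. The BCL2-type gene MCL1 measured higher on both (0.915, adjusted p = 0.0518, limma), and in BCL2L1 the groups overlapped. All of these other genes were chosen after their values were seen.

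Of 14 measured collagen prolyl and lysyl hydroxylases and their helpers, 1 was called lower, namely P4HA1 (7.14%, beside 2.02% of all genes), 0 were called higher in limma and 13 did not pass (median -0.28). P4HA1 is one of the 10 genes, and without it 0 of the 13 left in the list were called. At an unadjusted p under 0.05, 3 of the 14 were lower and 0 were higher, beside 1808 and 1523 of all 17687 genes. Whatever the p, 11 of the 14 measured lower, beside 8699 of all genes. With a variance trend 2 of the 14 were called, beside 1185 of all 17687 genes, where the main fit called 652. P4HB, which encodes the partner subunit of P4HA1 and was chosen after its values were seen, measured 15.43 and 15.60 in DMSO and 15.48 and 15.50 in MK-8776, so these groups overlapped. P4HA2, the paralog of P4HA1, measured 4.42 and 3.80 in DMSO and 4.07 and 4.21 in MK-8776, and these groups overlapped too. Of 10 VEGF ligands and receptors, NRP1, which encodes the co-receptor neuropilin 1, alone was called higher (10% of the list, beside 1.66% of all genes). In limma 0 were called lower and 9 did not pass (median 0.27). At an unadjusted p under 0.05, 1 was lower and 1 higher, beside the same 1808 and 1523 of all genes. NRP1 measured 8.41 and 6.98 in DMSO and 10.43 and 9.71 in MK-8776, a rise of 2.38 (SE 0.44, adjusted p = 0.0285, limma) with DMSO arrays 1.43 apart. Of 5 measured NDRG and TMEM45 family genes, NDRG1 and TMEM45A were called lower (40%, beside 2.02% of all genes) and the other 3 did not pass. Both called genes are among the 10, so without them 0 of the 3 left were called. NDRG3 measured 12.69 and 12.79 in DMSO and 12.18 and 12.19 in MK-8776, a difference of -0.56 (adjusted p = 0.186, limma) with no overlap between the groups. The differences were 0.02 for NDRG4 and 0.35 for TMEM45B. NDRG3, NDRG4, TMEM45B and P4HA2 were chosen after their values were seen.

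**Figure D4:**
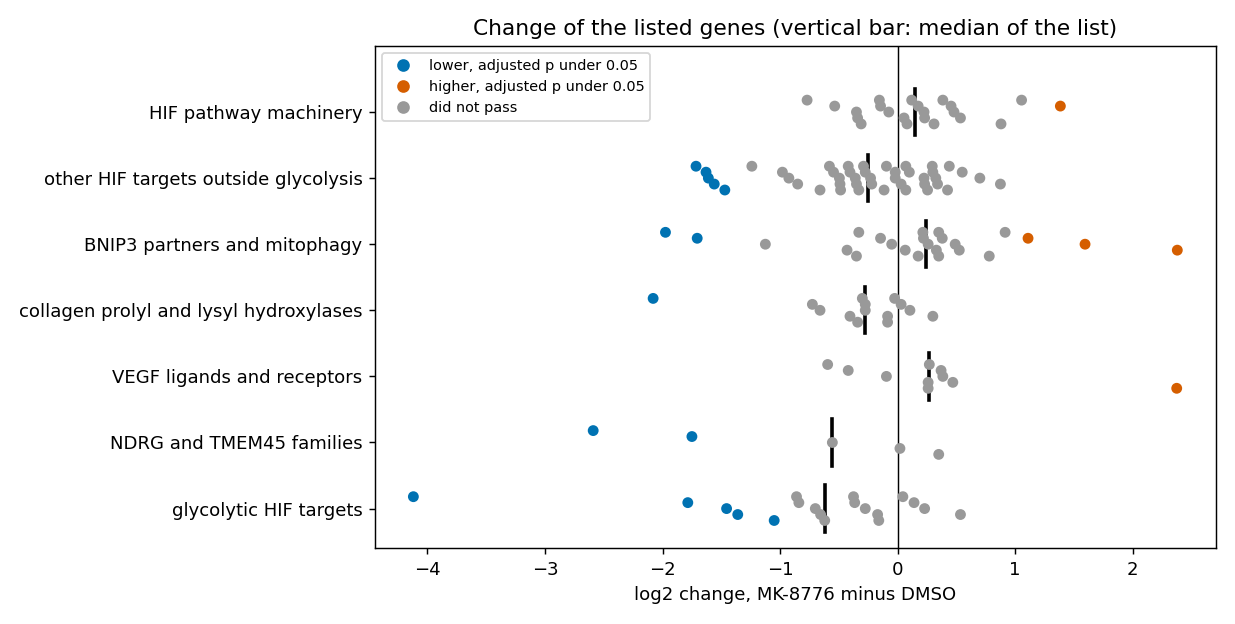
Log2 change, MK-8776 minus DMSO (horizontal axis), of each measured gene in 7 lists, with the list's median as a vertical bar. Blue genes passed as lower, orange as higher and grey did not pass. The 5 called among the other HIF targets and the 5 among the glycolytic ones lie on the lower side, and the median is 0.15 for the HIF machinery and -0.62 for the glycolytic targets.

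The glycolytic HIF targets give the nearest comparison. Of 19 measured, 5 were called lower (26.3%, beside 2.02% of all genes), 0 were called higher in limma and 14 did not pass, with a median of -0.62. At an unadjusted p under 0.05, 10 of the 19 were lower and 0 were higher, beside 1808 and 1523 of all 17687 genes. The 5 called lower were ALDOC (-4.12), GPI (-1.79), PDK1 (-1.46), LDHA (-1.36) and ENO2 (-1.05). The call of GPI was lost when all features were tested (adjusted p = 0.0546, limma). With MK-8776 ENO2 was under the lower quartile (3.75 and 3.71), so the size of its fall has the same limit as that of TMEM45A. The change of GPI was -1.15 without DMSO replicate 2. With the replicate block the calls of GPI and ENO2 were lost (adjusted p = 0.0512 and 0.0723). Against a fold of 1.2, GPI, PDK1 and ENO2 were lost (adjusted p = 0.0847, 0.0626 and 0.0938). Of all genes named from the lists, SQSTM1 and ALDOC alone passed in any fit with 1 array left out, both without MK-8776 replicate 2 (adjusted p = 0.0419 for each, limma). Whether the 10 genes differ from the glycolytic ones was not tested.

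For each of the 5 called genes the 2 genes most alike over the 4 arrays were sought, by the root-mean-square difference between values centred on each gene's mean, among 9451 genes above the median of all values in at least 1 group. HIF1A was most like CNR2 (0.0507) and WASHC2A (0.0522). BNIP3 was most like ADGRA2 (0.0763) and MT1M (0.0858), and NDRG1 was most like MT1E (0.129) and DGKG (0.162). P4HA1 was most like CCNB2 (0.0568) and NREP (0.0667), and TMEM45A was most like ADD2 (0.270) and SLC2A5 (0.296). With only 4 arrays many genes share such a pattern.

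The cell type was checked against its markers. Of 9 promyelocyte markers 7 were measured and all 7 lay above the median of all values in DMSO. So did 5 of 8 lymphoid markers, and 2 of 8 in each of the remaining lists below. The summed level of the promyelocyte markers was 70.3 to 73.9 in DMSO and 64.5 to 68.3 in MK-8776, with 2 called lower and 1 higher. Of all genes 2.02% were called lower and 1.66% higher. The summed level of 8 monocyte and macrophage markers was 38.8 to 38.9 in DMSO and 42.7 to 43.3 in MK-8776, with 2 called higher and 0 lower. Their median change was 0.32, and a few markers can carry such a sum. That of 8 lymphoid markers was 53.6 to 53.7 in DMSO and 52.8 to 53.2 in MK-8776, and that of 8 erythroid and megakaryocyte markers was 38.9 to 40.3 and 40.9 to 42.2, each with 1 called lower and 1 higher. That of 8 endothelial and fibroblast markers was 44.4 to 45.0 and 44.7 to 45.5, with 0 called in limma. Of these lists, in order, 0, 2, 2, 2 and 1 markers lay under the lower quartile in both groups. The part of these shifts in the changes of the 10 genes was not tested.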

How the data were processed

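Total RNA of 4 cultures was measured on Affymetrix arrays. The authors deposited log2 expression values made with RMA (background correction, normalization between arrays, summary of probes) with genome build hg38, per the submitters' processing notes. That the scale is log2 was read from the values (2.16 to 18.54). For RMA, version, settings and filters were not given in the sources used here. The highest values lie above the usual range of RMA, so a variant of it may have been used, which would alter the size of the log2 changes. RMA sets the arrays to one distribution, so a shift of total RNA cannot show. The number of arrays limits the precision.

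Of 21448 features, 17709 had exactly 1 symbol, giving 17687 genes (brightest feature per gene). Arrays were compared with limma 3.58.1 in R 4.3.3 (lmFit, eBayes), fitted across all genes with no filter and tested on simulated data. An exact permutation test of 2 against 2 cannot go below p = 0.333. Members, lists and tests were chosen with earlier results of these data known. No set test was run. 13 list symbols without a single-symbol feature were not analysed here.

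Named are the 10 genes, up to 5 called genes per list and direction with the largest change (or, with none, the 2 largest changes), and the 2 genes most alike each called member. Others are marked as chosen after their values were seen. Alternatives were quantile normalization, median centring, genes above the median, a variance trend (also robust), a replicate block, all features, treat against a fold of 1.2, the mean of a gene's features, and leaving out each array.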

Additional observations from a re-analysis of the deposited data

How the results depend on the processing

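In the limma fit 652 genes passed over the whole table, 4 of the 10 genes as lower and 1 as higher. Under quantile normalization, median centring, all features or the mean of a gene's features the same 5 of the 10 genes passed. With a variance trend 1185 genes passed (1162 with robust estimation), BNIP3L was added, and the HIF machinery list had 2 calls instead of 1, the other HIF targets 8 instead of 5, the BNIP3 group 8 instead of 5, the collagen hydroxylases 2 instead of 1 and the glycolytic list 7 instead of 5, with both estimations. Against a fold of 1.2, 288 genes passed, NDRG1 and 7 genes named from the lists were lost and the other HIF targets had 3 calls. Among genes above the median level 7 of the 10 remained, with a median change of -1.13 in place of -0.86, because EPAS1, EGLN3 and TMEM45A were left out, of which TMEM45A is one of the 4 genes called lower, and BNIP3L passed there. With the replicate number as a replicate block 309 genes passed, and NDRG1 (adjusted p = 0.0835), GBE1, GABARAPL1, MAP1LC3B, GPI and ENO2 were lost, so the BNIP3 group and the glycolytic list each had 3 calls instead of 5. The labels tie the numbers to no shared culture, and the deviations of equally numbered arrays correlated at 0.139 over genes. With 1 array left out, between 0 and 34 genes passed over the table in limma. In each of those fits 0 of the 10 genes, 0 of the HIF machinery and 0 of the other HIF targets passed. Each such fit has 1 array in a group, so this loss cannot decide whether a call holds. None of the changes of the 10 genes or of the genes called in the lists turned its sign under the alternatives run, and other named genes were not tried. With 1 array left out this was fixed in advance, since the groups did not overlap in any of these genes. Without scanner files there is no measure of signal over background for EGLN3 or, in MK-8776, for TMEM45A and ENO2, all dim.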
